A study of Mus musculus with 10 samples.

Results

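The unfolded protein response and the integrated stress response were followed through 39 genes in the trigeminal ganglion of the mouse, where sensory neurons that serve the face lie among satellite glia and Schwann cells. The genes were chosen by name, with earlier results of these data known, as the sensors, transcription factors and well-known targets of the response. Their Ensembl identifiers were looked up in both deposited tables. All 39 were found in the surgery table of 26411 genes and in the injection table of 55886 genes. Total RNA of ganglion tissue was sequenced in 10 libraries. In the surgery experiment, 3 sham libraries and 3 libraries labelled pIONT were taken 10 days after the operation. In the injection experiment, the ganglia of 2 libraries labelled PBS (phosphate-buffered saline) and 2 labelled UCN1 (urocortin 1, a relative of corticotropin-releasing factor) were taken 6 hours after injection into the ganglion. The labels give no strain, sex, age or genotype, no peptide dose, and no statement on whether a library was 1 animal or a pool. The p-values therefore rest on the spread among these libraries alone, and that spread may be technical.

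Proteins that enter the secretory pathway are folded in the endoplasmic reticulum (ER), and unfolded protein there activates 3 sensors in its membrane. IRE1, encoded by Ern1, splices the Xbp1 transcript so that the active transcription factor can be made. ATF6 is cut to release another transcription factor, and PERK, encoded by Eif2ak3, phosphorylates the initiation factor eIF2. The last step lowers general translation and favours translation of Atf4, and it is shared with other kinases that sense amino acid shortage, double-stranded RNA or haem shortage, so this branch is called the integrated stress response. The products are chaperones and enzymes that fold, retain or degrade proteins of the ER, and, downstream of ATF4 and CHOP (encoded by Ddit3), genes of amino acid supply, feedback and cell death. Sensory neurons and Schwann cells carry a heavy load of membrane and secreted proteins. Values per gene count spliced and unspliced Xbp1 together and do not measure phosphorylation, cleavage of ATF6 or translation.

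Promoter sequences are shown because many of these genes share a short element through which they are known to answer ER stress. The ER stress response element was searched as CCAAT, 9 bases of any kind and CCACG, in the 250 bases before and 50 after each gene's start, on both strands, in the RefSeq promoter table (build GRCm38.p6), which had 35 of the 39 genes. It was found in 9 of the 35 genes and in 39 of 32851 promoters in that table (0.1187%). Hsp90b1, a lumenal chaperone, had a pair of matches. The 10 matches follow, read on the strand that carries them, with the fixed letters in capitals.
Hspa5: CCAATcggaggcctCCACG
Pdia6: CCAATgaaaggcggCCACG
Calr: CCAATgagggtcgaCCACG
Derl3: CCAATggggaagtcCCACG
Creld2: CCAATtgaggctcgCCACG
Hsp90b1, the distal match: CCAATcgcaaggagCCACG
Hsp90b1, the proximal match: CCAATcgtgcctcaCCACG
Dnajc3: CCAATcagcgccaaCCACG
Canx: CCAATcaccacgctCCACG
Syvn1: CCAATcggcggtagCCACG

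The promoter of Hspa5 is given whole, since this gene had the highest fold change of the 39 after UCN1 on the log2(FPKM + 0.5) scale (0.68, beside 0.67 for Xbp1). It lies at chr2:34771840-34772139 on the plus strand of GRCm38.p6, and the capitals mark the ER stress response element and, upstream of it, TGACGTG, the core of the unfolded protein response element.
Hspa5 promoter: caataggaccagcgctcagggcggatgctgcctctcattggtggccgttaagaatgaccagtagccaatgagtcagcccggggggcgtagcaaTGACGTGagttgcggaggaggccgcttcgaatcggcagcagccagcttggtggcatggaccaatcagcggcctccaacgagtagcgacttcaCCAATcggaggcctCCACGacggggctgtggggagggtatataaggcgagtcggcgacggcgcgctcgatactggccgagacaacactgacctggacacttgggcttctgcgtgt
TGACGTG was found in 661 promoters (2.01%) and in no other of the 35 genes. Another element, TGATGNAA, the composite site of C/EBP and ATF factors to which ATF4 binds, was found in 1304 promoters (3.97%) and in 4 of the genes, Asns, Chac1, Herpud1 and Trib3. A shorter form of the ER stress response element, ATTGG, 1 base and CCACG, was added to the search after the values were seen. It was found in 12 promoters (0.0365%) and in Dnajb11 and Herpud1. The promoters of Chac1, at chr2:119350992-119351291 (plus strand), and Herpud1, at chr8:94386179-94386478 (plus strand), are shown because Chac1 had the largest change after surgery and Herpud1 carries elements of both kinds. The composite site lies on the opposite strand in both and appears as TTGCATCA, and ATTGGgCCACG in Herpud1 is the shorter element.
Chac1 promoter: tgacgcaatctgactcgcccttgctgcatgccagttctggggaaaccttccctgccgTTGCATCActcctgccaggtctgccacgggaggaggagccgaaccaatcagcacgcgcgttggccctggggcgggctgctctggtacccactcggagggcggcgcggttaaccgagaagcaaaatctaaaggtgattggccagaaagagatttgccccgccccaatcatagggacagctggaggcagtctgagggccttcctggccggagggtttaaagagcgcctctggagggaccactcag
Herpud1 promoter: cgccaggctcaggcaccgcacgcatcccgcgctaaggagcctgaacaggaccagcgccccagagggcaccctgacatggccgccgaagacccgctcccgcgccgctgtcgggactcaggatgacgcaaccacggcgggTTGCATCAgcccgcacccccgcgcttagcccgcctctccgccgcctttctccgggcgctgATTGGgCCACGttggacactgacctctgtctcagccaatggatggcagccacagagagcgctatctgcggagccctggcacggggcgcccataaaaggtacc
No match overlapped another. The search took exact letters, so related sites with another base are not counted, and a gene without a match, such as Xbp1, is without these letters in this window. Of 36 promoter entries for these genes, 29 had their first 40 transcribed bases in an annotated transcript of the gene. For the other entries the start used for the window was not borne out in this way. A match is a description of the sequence; binding was not measured.

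Levels are given in FPKM, reads per kilobase of gene and per M reads of the library (M for 1000000), as the authors deposited them. The surgery libraries held 24.1 to 29.6 M reads in genes and the injection libraries 15.7 to 17.1 M, recovered from the steps between low values. Genes with a mean of at least 0.5 FPKM were tested with limma on log2(FPKM + 0.5) within each table, and a gene is said to have risen or fallen where its Benjamini-Hochberg adjusted p over all tested genes was under 0.05. Fold changes are log2 differences on that scale, where the change of low genes comes out too small, each with its standard error (SE). The tables used different annotations and gene lengths, so no level is compared between them. The labelled tissue was checked on 7 neuronal and 7 satellite glial marker genes, all of them tested in both tables and none at 0. In the injection experiment the neuronal genes summed to 6342 and 6572 FPKM after PBS and 6715 and 6829 FPKM after UCN1, and the glial genes to 4417 and 4135 FPKM and to 4704 and 4868 FPKM. There, 7 pituitary genes, genes of a gland that lies near the ganglion, summed to 122 and 124 FPKM in the PBS libraries and to 9.14 and 9.61 FPKM in the UCN1 libraries. Of the 5 that could be tested 3 fell, and Lhb was at 0 in every library. Of 7 genes of fibroblasts and meninges, none at 0 and with sums of 958 and 738 FPKM after PBS and 708 and 687 FPKM after UCN1, 2 fell. They were Mfap4, from 44.9 and 40.9 to 1.28 and 1.01 FPKM, and Fmod, from 33.2 and 13.2 to 1.09 and 0.663 FPKM. In the surgery experiment, 9 macrophage genes summed to 161 to 300 FPKM in sham and to 349, 393 and 853 FPKM in pIONT 3, 1 and 2, with 6 of the 9 higher and none at 0. Pituitary genes summed to 765 FPKM in sham 1, 80.7 and 255 FPKM in the other sham libraries and 117 to 132 FPKM in pIONT. The neuronal genes summed to 5073 to 5550 FPKM in sham and 6084 to 6239 FPKM in pIONT. Of these 7, 3 rose and 4 fell, and Tubb3 among the 3 went from a mean of 1162 to 2149 FPKM. The higher sum therefore does not stand for the 7 alike. The satellite glial genes summed to 2600 to 2780 FPKM and 2989 to 3688 FPKM, where 3 of the 7 rose. Apoe, which was not called, made up most of that sum, with means of 1961 and 2474 FPKM. Of 7 genes of myelinating Schwann cells, none at 0, 5 fell, with sums of 4520 to 5007 FPKM in sham and 3743 to 4016 FPKM in pIONT. The part of these tissues in the results was not tested, and in bulk tissue a change in the number of cells of a type and a change in RNA per cell cannot be told apart.

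The injection experiment asked what UCN1 changed in the ganglion within hours. Xbp1 and Hspa5, which encodes the chief ER chaperone BiP, rose by about the same fold, and Pdia6, Pdia4, Manf, Calr, Atf4, Herpud1 and Ddit3 were higher in both UCN1 libraries by 0.39 to 0.51 on the log2 scale without passing the threshold. So were Trib3 and Derl3, genes of few reads, by 0.59 and 0.46. The 3 sensor genes did not pass it in either direction. All 39 genes were tested. Of them 2 rose, against 0.304% of the 16139 genes tested, and 0 fell in limma, against 0.297%. At an unadjusted p under 0.05 the counts were 14 higher and 0 lower, against 6.36% and 6.73% of all tested genes. With voom, a limma test on recovered whole reads, 8 were called higher and 0 lower, against 1.04% and 1.19%. Fold changes were positive for 30 of the 39 and negative for 9, with a median of 0.14 against -0.01 over all tested genes. Of all tested genes 48.5% were positive. The UCN1 libraries did not overlap the PBS libraries in 22 of the 39, 18 higher and 4 lower. With 2 libraries a group this is common, and 45.5% of all tested genes did not overlap.

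**Figure D1:**
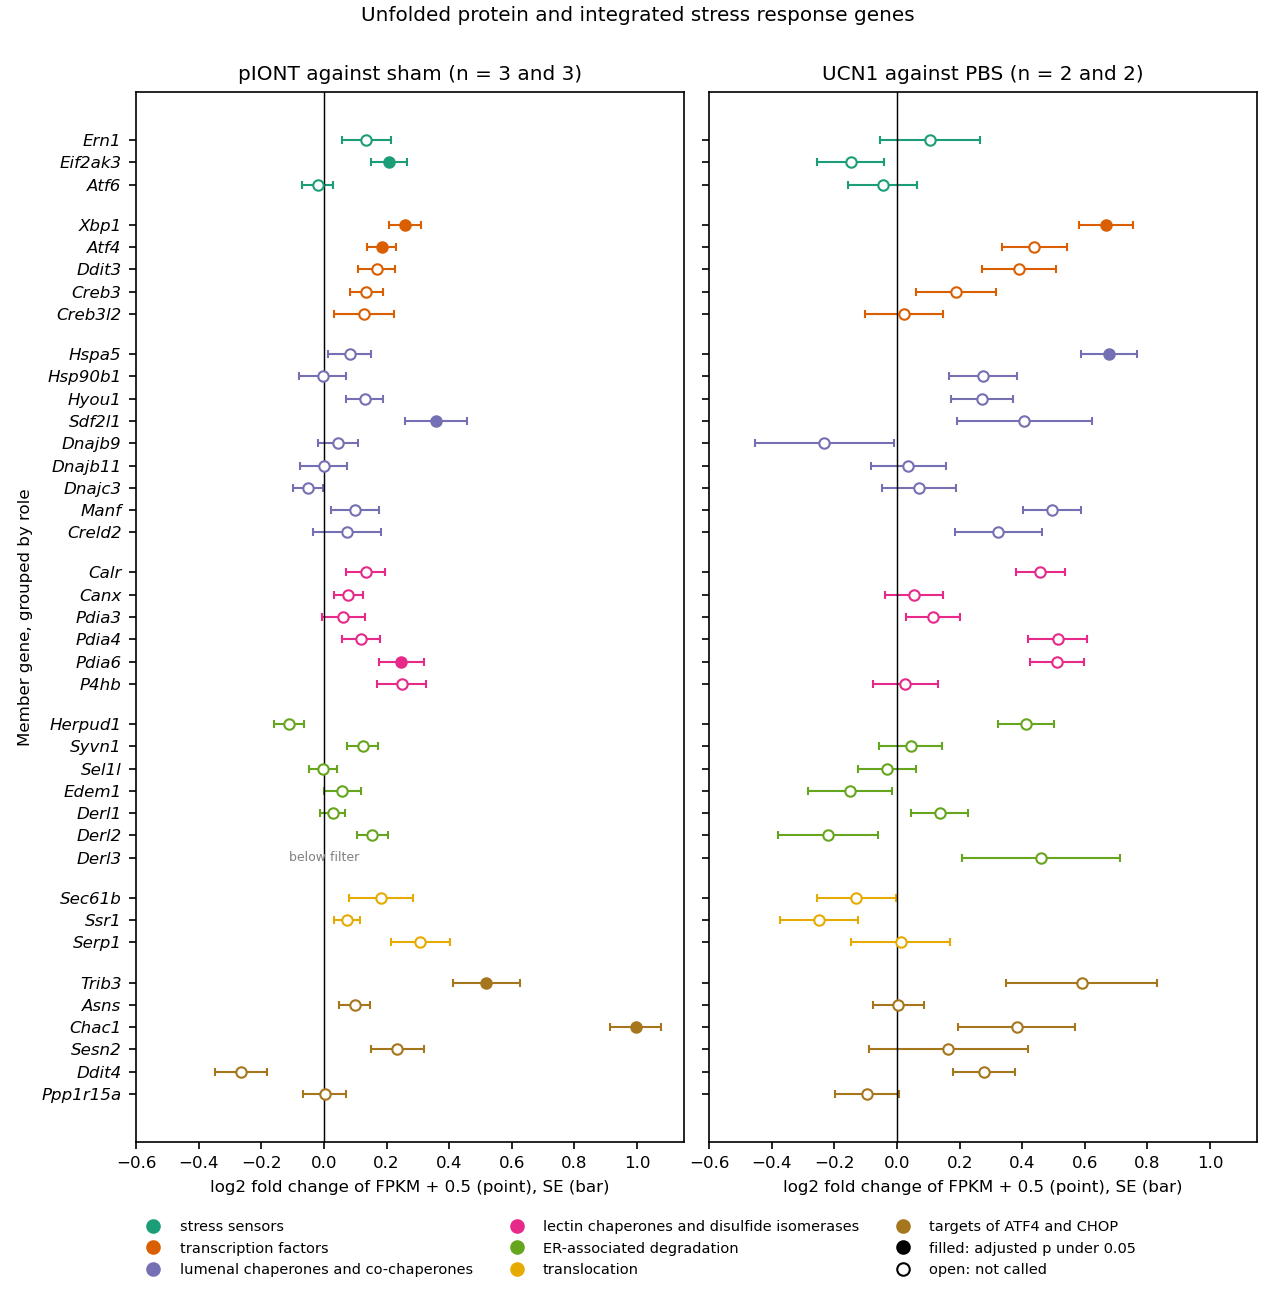
Fold changes of the 39 genes, grouped by role, after pIONT (left, n = 3 and 3) and after UCN1 (right, n = 2 and 2). Points are log2 differences of FPKM + 0.5, treated minus control, bars are standard errors, and filled points passed an adjusted p of 0.05. After UCN1 Hspa5 and Xbp1 stand at 0.68 and 0.67, and after pIONT Chac1 stands at 1.00.

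Among the sensors, Ern1 stood at 6.03 and 7.48 FPKM in the PBS libraries and at 7.45 and 7.07 FPKM in the UCN1 libraries. Eif2ak3 stood at 24.8 and 25.9 FPKM after PBS and at 21.9 and 23.9 FPKM after UCN1, lower in both (-0.15, SE 0.11, adjusted p = 0.586, limma). Atf6 stood at 19.0 and 19.5 FPKM after PBS and at 19.3 and 18.0 FPKM after UCN1. Ern1 and Atf6 overlapped between the groups, and all 3 fold changes lay within 0.15 of no change on the log2 scale.

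All 5 transcription factors had positive fold changes, with a median of 0.39. Xbp1, the substrate of IRE1, stood at 65.1 and 60.9 FPKM after PBS and at 100.2 and 100.4 FPKM after UCN1, a 1.59-fold rise (log2 0.67, SE 0.09, adjusted p = 0.0223, limma). It lies at chr11:5520659-5525893 in GRCm38, and 1306 to 2185 reads a library stood behind these values. The UCN1 libraries were close to each other and well above both PBS libraries. Atf4, the effector translated when eIF2 is phosphorylated, stood at 64.2 and 54.3 FPKM after PBS and at 79.2 and 81.2 FPKM after UCN1 (0.44, SE 0.10, adjusted p = 0.139, limma). Ddit3, which encodes CHOP, stood at 14.1 and 13.3 FPKM after PBS and at 19.0 and 17.2 FPKM after UCN1 (0.39, SE 0.12, adjusted p = 0.234, limma). Neither overlapped between the groups and neither passed the threshold. Part of the exons of Ddit3 overlap other annotated genes, by 4.73% on the opposite strand and by 6.13% on the same strand, where a second identifier carries the same symbol, and the strand of the counting is not given. Creb3 and Creb3l2, membrane-bound factors of the ATF6 kind, had fold changes of 0.19 and 0.02, and their groups overlapped.

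Hspa5 stood at 117.7 and 127.7 FPKM after PBS and at 205.8 and 187.6 FPKM after UCN1, a 1.60-fold rise (log2 0.68, SE 0.09, adjusted p = 0.0242, limma). It lies at chr2:34771970-34777547 in GRCm38 and was read 2621 to 4977 times a library. Both UCN1 libraries lay above both PBS libraries by more than the spread within either group. Manf, an ER resident protein that is also secreted as a neurotrophic factor, stood at 34.2 and 35.6 FPKM after PBS and at 49.8 and 48.9 FPKM after UCN1 (0.49, SE 0.09, adjusted p = 0.0778, limma). Creld2, a cysteine-rich ER protein, stood at 6.81 and 7.34 FPKM after PBS and at 9.23 and 8.73 FPKM after UCN1 (0.32, SE 0.14, adjusted p = 0.377, limma). For both the groups did not overlap, and both missed the threshold; 8.85% of the exons of Manf overlap genes on the opposite strand. Hyou1, an exchange factor and chaperone, and Hsp90b1, which encodes GRP94, also stood higher in both UCN1 libraries, each by 0.27 with adjusted p of 0.304 and 0.341 in limma; 10.29% of the exons of Hsp90b1 overlap a gene on the opposite strand. Sdf2l1, which works with the co-chaperone ERdj3, stood at 4.77 and 7.62 FPKM after PBS and at 8.79 and 7.60 FPKM after UCN1, so the groups overlapped (adjusted p = 0.465, limma). Fold changes of the co-chaperones of BiP with a J domain were lower than that of BiP itself, at 0.04 for Dnajb11 and 0.07 for Dnajc3, and a difference between genes was not tested. Dnajb9 stood at 43.3 and 39.8 FPKM after PBS and at 46.7 and 26.6 FPKM after UCN1, the UCN1 libraries on either side of the PBS libraries.

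The lectin chaperones and disulfide isomerases had fold changes of 0.46 to 0.51 in 3 genes and of 0.03 to 0.11 in the other 3. Calr, which encodes the soluble lectin chaperone calreticulin, stood at 282.1 and 301.9 FPKM after PBS and at 402.8 and 399.3 FPKM after UCN1 (0.46, SE 0.08, adjusted p = 0.0604, limma). Pdia6, an isomerase that also acts on the sensors, stood at 60.5 and 63.8 FPKM after PBS and at 90.4 and 87.3 FPKM after UCN1 (0.51, SE 0.09, adjusted p = 0.0543, limma). Pdia4 stood at 29.3 and 30.2 FPKM after PBS and at 43.8 and 41.6 FPKM after UCN1 (0.51, SE 0.10, adjusted p = 0.0778, limma). For these 3 the gap between the groups was several times the difference between libraries of a group, yet none passed the threshold over all genes. Canx, the membrane lectin that does the same work as calreticulin, had a fold change of 0.06, and the isomerases P4hb and Pdia3 of 0.03 and 0.11. Calr, Pdia6 and Canx all carry the ER stress response element printed above.

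In ER-associated degradation, Herpud1, a membrane component of the retrotranslocation complex, stood at 51.7 and 50.9 FPKM after PBS and at 66.2 and 70.8 FPKM after UCN1 (0.41, SE 0.09, adjusted p = 0.111, limma). Derl3, a derlin that helps move proteins out of the ER, stood at 1.24 and 1.22 FPKM after PBS and at 2.13 and 1.65 FPKM after UCN1 (0.46, SE 0.25, adjusted p = 0.478, limma), on 15 to 28 reads a library. Herpud1 and Derl3 were higher in both UCN1 libraries. Derl1 stood at 0.14 without overlap, and the remaining 4 ranged from -0.22 to 0.04 with overlapping groups. They are Syvn1, which encodes the ubiquitin ligase HRD1, its partner Sel1l, the mannosidase-like Edem1 and the derlin Derl2. The translocation genes ranged from -0.25 for Ssr1, a subunit of the translocon-associated complex, to 0.01 for Serp1. Ssr1 stood at 53.1 and 49.7 FPKM after PBS and at 48.5 and 38.4 FPKM after UCN1 (adjusted p = 0.437, limma), and Sec61b, a subunit of the translocation channel, was lower in both UCN1 libraries by 0.13.

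Among targets of ATF4 and CHOP, Trib3, a pseudokinase that feeds back on ATF4 and CHOP, stood at 2.11 and 1.94 FPKM after PBS and at 2.67 and 4.07 FPKM after UCN1 (0.59, SE 0.24, adjusted p = 0.353, limma). Chac1, which degrades glutathione, stood at 2.96 and 3.66 FPKM after PBS and at 4.41 and 4.48 FPKM after UCN1 (0.38, SE 0.19, adjusted p = 0.429, limma). Both were higher in both UCN1 libraries, with 35 to 71 reads for Trib3 and 76 to 123 for Chac1, and neither passed. Ddit4, an inhibitor of mTORC1 signalling, was higher without overlap by 0.28 (adjusted p = 0.302, limma). Asns, the asparagine synthetase, had a fold change of 0.00, Sesn2 of 0.16 and Ppp1r15a, which encodes the eIF2 phosphatase subunit GADD34, of -0.10. Ppp1r15a was the fourth gene, beside Eif2ak3, Sec61b and Ssr1, that was lower in both UCN1 libraries.

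**Figure D2:**
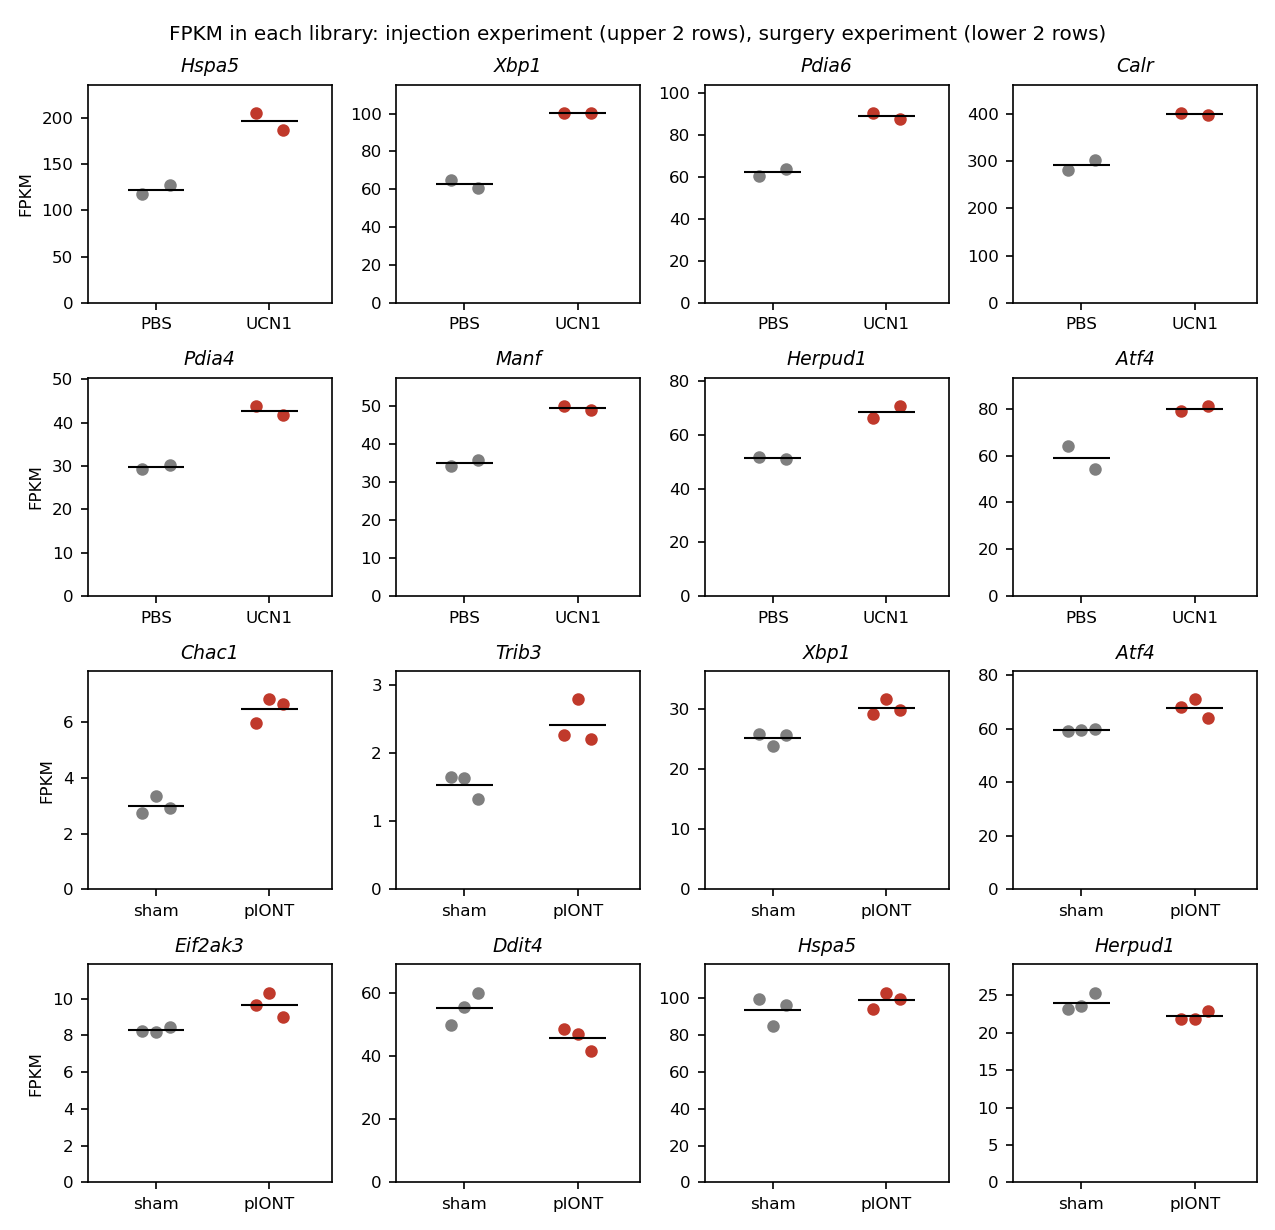
FPKM of 12 of the genes in each library, 8 panels for PBS and UCN1 (upper rows) and 8 for sham and pIONT (lower rows); points are libraries, lines are group means, and each axis starts at 0. The panels are a selection: the UCN1 libraries lie above the PBS libraries in all 8 upper panels, but in 18 of the 39 genes. Of the 39, 4 were lower in both UCN1 libraries and the others overlapped. In the lower panels Hspa5 overlaps between sham and pIONT while Ddit4 and Herpud1 are lower in pIONT.

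The number of calls after UCN1 depended on the settings of the test, among the 39 genes and over all genes. Leaving out any 1 of the 4 libraries leaves a lone library in a group, so only fold changes are taken from those fits. Hspa5 and Xbp1 kept their sign in all 14 alternatives, with fold changes of 0.61 to 0.74 and 0.62 to 0.71. With a filter of 2 FPKM 6 of the 39 were called higher, the added ones being Manf, Calr, Pdia4 and Pdia6. Over all tested genes that filter called 84 of 12564 higher. Voom called 8, which added Atf4 and Herpud1 as well, beside 164 of 15753 over all tested genes. Without a filter on low values 0 were called, beside 0 higher among all 28144 tested genes. Without the mean-variance trend 0 were called, beside 1 higher among all 16139.

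The surgery experiment asked which genes differed from sham on day 10 after pIONT. Chac1 rose most, followed by Trib3, both targets of ATF4 and CHOP, and Xbp1, Atf4, Eif2ak3, Sdf2l1 and Pdia6 rose by 13.8 to 28.7%. Hspa5 and Herpud1, higher in both UCN1 libraries, did not pass the threshold here. Of the 39 genes 38 were tested, since Derl3 lay below the filter at 0.258 to 0.842 FPKM. Of those 7 rose, against 10.5% of the 14672 genes tested, and 0 fell in limma, against 12.3%. At an unadjusted p under 0.05 there were 14 higher and 1 lower, against 16.5% and 20.6% of all tested genes, and voom called 10 higher and 1 lower, against 11.3% and 13.5%. Fold changes were positive for 31 and negative for 7, with a median of 0.12 against -0.02 over all tested genes. Of all tested genes 45.0% were positive. The groups did not overlap in 19, 17 higher and 2 lower, while 43.4% of all tested genes did not overlap.

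Of the sensors, Eif2ak3 stood at 8.25, 8.17 and 8.46 FPKM in sham 1 to 3 and at 9.67, 10.3 and 9.00 FPKM in pIONT 1 to 3 (0.21, SE 0.06, adjusted p = 0.0409, limma). The groups did not overlap, and the gene overlaps another on the opposite strand over 8.05% of its exons. Ern1 stood at 1.82, 1.79 and 1.60 FPKM in sham and at 1.85, 2.13 and 1.90 FPKM in pIONT (adjusted p = 0.257, limma). Atf6 stood at 6.76, 6.57 and 6.55 FPKM in sham and at 6.79, 6.23 and 6.59 FPKM in pIONT, a difference of -0.02. Ern1 was just above the sham range in each pIONT library and Atf6 was within it or on either side.

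All 5 transcription factors had positive fold changes, from 0.13 to 0.26. Xbp1 stood at 25.9, 23.8 and 25.7 FPKM in sham and at 29.2, 31.5 and 29.7 FPKM in pIONT (0.26, SE 0.05, adjusted p = 0.0135, limma). Atf4 stood at 59.1, 59.5 and 59.9 FPKM in sham and at 68.1, 70.9 and 64.1 FPKM in pIONT (0.18, SE 0.05, adjusted p = 0.0301, limma). For Atf4 the sham libraries were almost equal and every pIONT library lay above them. Ddit3 stood at 18.2, 16.1 and 18.1 FPKM in sham and at 19.0, 19.7 and 20.4 FPKM in pIONT, without overlap (0.17, SE 0.06, adjusted p = 0.0826, limma). Creb3 was also higher without overlap, by 0.14, with 20.78% of its exons overlapping genes on the opposite strand.

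Of the 9 lumenal chaperones and co-chaperones 1 rose, Sdf2l1. Hspa5 stood at 99.3, 84.5 and 96.2 FPKM in sham and at 94.1, 102.8 and 99.2 FPKM in pIONT, so the groups overlapped (0.08, SE 0.07, adjusted p = 0.429, limma). Sdf2l1 stood at 13.1, 9.83 and 11.6 FPKM in sham and at 15.3, 15.2 and 13.9 FPKM in pIONT (0.36, SE 0.10, adjusted p = 0.0418, limma). Every pIONT library lay above the sham libraries for Sdf2l1, and the other 8 ranged from -0.05 to 0.13 with overlapping groups. Among isomerases, Pdia6 stood at 36.3, 33.4 and 37.9 FPKM in sham and at 39.96, 46.5 and 41.6 FPKM in pIONT (0.25, SE 0.07, adjusted p = 0.046, limma). P4hb had the same fold change of 0.25 without overlap but an adjusted p of 0.0633 in limma, and Calr stood at 0.13 without overlap (adjusted p = 0.171, limma).

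In ER-associated degradation 0 of 6 tested genes were called by limma, 2 were under an unadjusted p of 0.05, and voom called 1, Derl2. Herpud1 stood at 23.1, 23.6 and 25.3 FPKM in sham and at 21.9, 21.9 and 22.8 FPKM in pIONT, lower in every pIONT library (-0.11, SE 0.05, adjusted p = 0.142, limma). Derl2 and Syvn1 were higher without overlap, by 0.15 and 0.12. Serp1, which stabilises proteins at the translocon, stood at 11.1, 9.23 and 10.3 FPKM in sham and at 11.8, 14.4 and 12.2 FPKM in pIONT (0.31, SE 0.09, adjusted p = 0.054, limma). The pIONT libraries of Serp1 lay above the sham libraries, narrowly for pIONT 1.

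Chac1 stood at 2.74, 3.34 and 2.94 FPKM in sham and at 5.97, 6.83 and 6.66 FPKM in pIONT, a 2.16-fold rise (log2 1.00, SE 0.08, adjusted p = 0.000518, limma) on 116 to 326 reads a library. Trib3 stood at 1.65, 1.64 and 1.33 FPKM in sham and at 2.26, 2.79 and 2.21 FPKM in pIONT, a 1.57-fold rise (log2 0.52, SE 0.11, adjusted p = 0.0154, limma) on 68 to 173 reads. The lowest pIONT library lay well above the highest sham library for both. Sesn2, an amino acid sensor and antioxidant, stood at 0.23 without overlap (adjusted p = 0.0899, limma). Ddit4 went the other way, at 49.8, 55.5 and 60.1 FPKM in sham and 48.5, 47.2 and 41.7 FPKM in pIONT (-0.27, SE 0.08, adjusted p = 0.0623, limma). Its groups did not overlap, and it passed the threshold as lower with voom, with TPM scaling and without sham 1. Asns and Ppp1r15a had fold changes of 0.10 and 0.00 with overlapping groups.

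Chac1 was called under all 16 alternatives, Xbp1 under 15 of 16 and Trib3 under 14 of 15, the last losing its call without sham 3 (adjusted p = 0.0528, limma). The other 4 were called under 6 to 8 of 16 and kept their sign in all. Without pIONT 2 the called genes were Xbp1, Trib3 and Chac1, and the median over the 38 was 0.08. Without sham 2 the same genes were called, and the median was 0.09. The count called higher was 4 without sham 1, the library with the high pituitary sum, 3 without sham 2 and 2 without sham 3. It was 4 without pIONT 1 and 7 without pIONT 3. Over all tested genes 1203, 1087 and 922 were called higher without sham 1, 2 and 3, against 1537 with every library. Without pIONT 1, 2 and 3 they numbered 1216, 1138 and 1389. The library pIONT 2 was the highest of the pIONT libraries in 26 of the 39 genes and the highest of all 6 libraries in 23. Likewise, sham 1 was the highest of the sham libraries in 26. The same shares over all tested genes were not computed. The highest macrophage sum was also that of pIONT 2, and a link between the 2 was not tested.

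**Figure D3:**
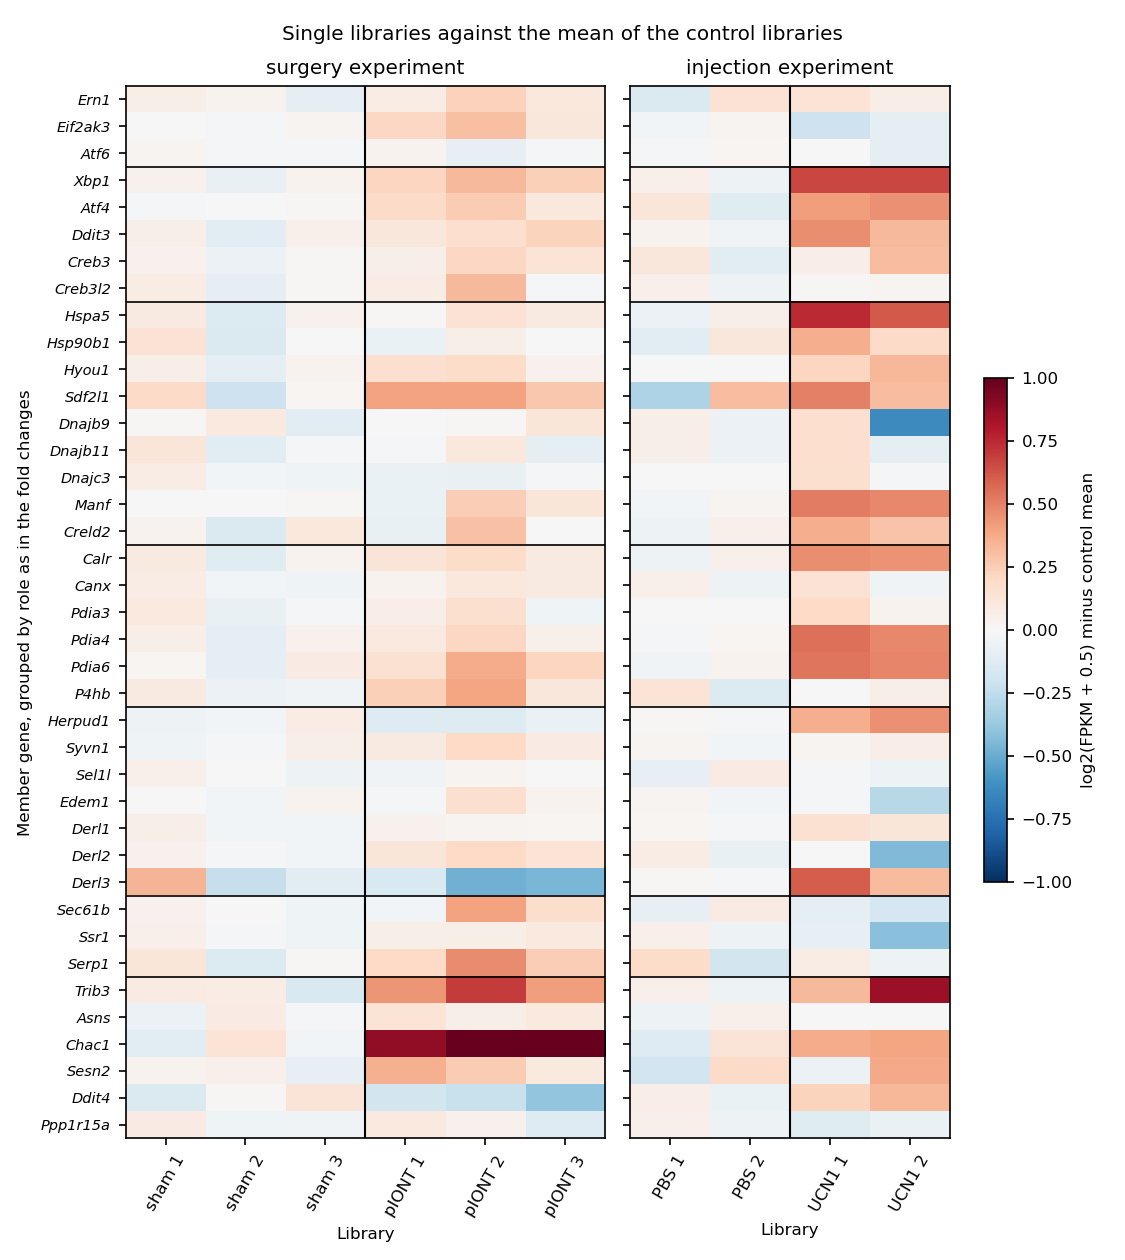
The 39 genes in each library as log2(FPKM + 0.5) minus the mean of that experiment's control libraries, with values beyond 1 drawn at the end of the scale; horizontal lines separate the roles and vertical lines the groups. In the UCN1 libraries Hspa5, Xbp1, Manf, Calr, Pdia4, Pdia6 and Herpud1 are high in both, while Dnajb9, Ssr1 and Derl2 are low in UCN1 2 but not or less in UCN1 1; Chac1 and Trib3 lead in pIONT, and pIONT 2 is the highest of all 6 libraries in 23 genes.

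A further 107 genes of the pathway were listed by role and set beside the 39. They too were chosen with earlier results of these data known, so they are not an independent check. After pIONT 18 of the 100 tested rose and 2 fell, against 10.5% and 12.3% of all tested genes, with a median of 0.07. Most of the 18 were further targets of ATF4, of which 10 of 23 tested rose and 0 fell in limma, with 0 lower at an unadjusted p under 0.05 and 0 in voom. Their median was 0.21. Of these, Cars, the cysteinyl-tRNA synthetase, rose from 4.54 ± 0.268 to 6.11 ± 0.339 FPKM (SD, n = 3 and 3; 0.39, adjusted p = 0.00736, limma). Eif4ebp1, which encodes the translation inhibitor 4E-BP1, rose from 2.40 ± 0.445 to 4.38 ± 0.806 FPKM (SD, n = 3 and 3; 0.75, adjusted p = 0.0146, limma). Gars and Wars, the glycyl- and tryptophanyl-tRNA synthetases, rose by 0.23 and 0.33. The other 6 were Slc7a1 and Slc7a3, transporters of cationic amino acids, Cebpg and Atf5, transcription factors, Nars, a further synthetase, and Mthfd2 of mitochondrial folate metabolism. Without pIONT 3 12 of these ATF4 targets were called higher, and without any other 1 library 4 or 5. Over all tested genes 1389 were called higher without pIONT 3 and 922 to 1216 without any other 1, against 1537 with every library.

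The other lists held 8 rises and 2 falls among 77 tested genes, a share of rises near the 10.5% of all tested genes. Of 17 folding genes Prdx4, an ER peroxiredoxin, and Pdia5 rose by 0.31 and 0.40, and Fkbp2, a prolyl isomerase, fell by 0.23. In ER-associated degradation the lectin Os9 and the conjugating enzyme Ube2g2 rose by 0.24 and 0.22. In translocation and export the cargo receptor Surf4, the coat subunit Sec24d and the signal peptidase subunit Sec11c rose by 0.23, 0.36 and 0.15, and the coat subunit Sec31a fell by 0.15. Mbtps2, the protease that completes the cleavage of ATF6, rose by 0.23, and 28.37% of its exons overlap another gene on the same strand. Of 10 genes for other kinases of eIF2, its alpha subunit, its exchange factor and a phosphatase subunit, 0 were called by limma, 1 was under an unadjusted p of 0.05 and voom called 0.

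After UCN1 the same 107 genes gave 0 calls among 102 tested in limma and 0 in voom. At an unadjusted p under 0.05 there were 7 higher and 9 lower, against 6.36% and 6.73% of all tested genes. Fold changes were positive for 50 and negative for 52, beside 48.5% positive over all tested genes. The median was -0.01, as over all tested genes. Further ATF4 targets had a median of 0.08, further folding genes of -0.07 and further degradation genes of -0.02. Prdx4 stood at 12.7 and 12.9 FPKM after PBS and at 9.72 and 10.6 FPKM after UCN1 (-0.32, adjusted p = 0.331, limma), lower in both, whereas it rose after pIONT.

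**Figure D4:**
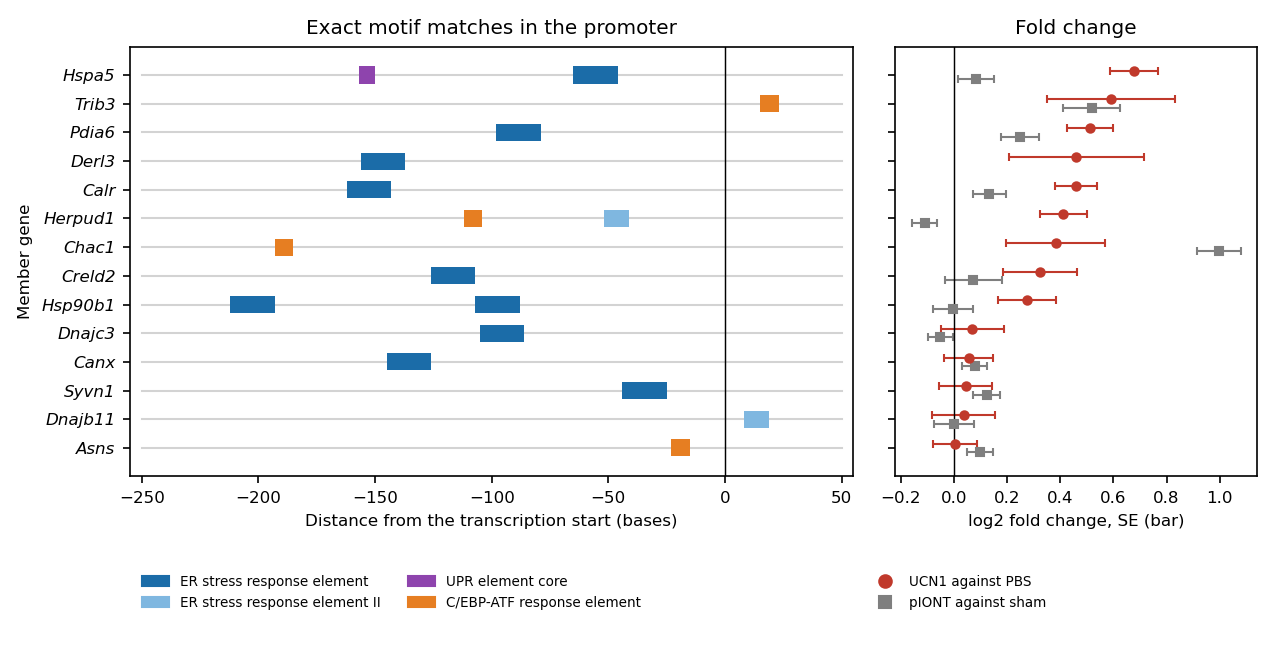
Exact matches in the promoters of the 14 genes that had any (left; blocks are matches, distance in bases from the start, coloured by element) beside the log2 fold changes of these genes with standard errors (right; circles UCN1 against PBS, n = 2 and 2, squares pIONT against sham, n = 3 and 3). Genes are ordered by their fold change after UCN1, from 0.68 for Hspa5 to 0.00 for Asns; Derl3 has no square because it was not tested after surgery.

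Set beside the promoter sequences, the 9 genes with the ER stress response element all had positive fold changes after UCN1, from 0.04 for Syvn1 to 0.68 for Hspa5, with a median of 0.32. The 26 genes with a promoter in the table but without this element, 5 of which carry one of the others, had a median of 0.07 and 18 positive fold changes. Over all genes tested after UCN1, 48.5% of fold changes were positive. After pIONT the medians were 0.08 for the 8 tested genes with the element and 0.14 for those without. These are descriptions of chosen genes and carry no test. Canx, Dnajc3 and Syvn1 carry the element and stood at 0.06, 0.07 and 0.04 after UCN1, while Xbp1, without a match in its window, stood at 0.67. Of the 4 genes with the composite site, Trib3, Herpud1 and Chac1 stood at 0.59, 0.41 and 0.38 after UCN1 and at 0.52, -0.11 and 1.00 after pIONT, and Asns at 0.00 and 0.10.

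Between the experiments, 38 genes were tested in both, and 26 had the same sign, 24 positive and 2 negative. Since 31 of 38 were positive after pIONT and 30 of 39 after UCN1, most signs would match without any link between the experiments. The share of matching signs over all genes was not computed. Of all 39 genes, Xbp1 rose in both, Hspa5 rose after UCN1 alone and 6 rose after pIONT alone. The other 31 were called in neither, among them Derl3, which was not tested after pIONT. A difference between the experiments was not tested, since the tables were made separately and differ in time and treatment. Side by side, Hspa5 stood at 0.68 after UCN1 and 0.08 after pIONT, Herpud1 at 0.41 and -0.11, Ddit4 at 0.28 and -0.27, and Chac1 at 0.38 and 1.00. Sec61b and Ssr1 were negative after UCN1, at -0.13 and -0.25, and positive after pIONT, at 0.18 and 0.07.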

How the data were processed

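RNA of mouse trigeminal ganglion was measured in 10 libraries. The authors deposited 1 table of FPKM per experiment. Per the submitters' processing notes, the tools were STAR, HTSeq and DESeq2 on the build GRCm39; versions and roles are not stated. Per the labels' protocols, TRIzol and a NEBNext Ultra II RNA kit were used, and strand handling is not stated. Gene coordinates of the injection table equal those of GENCODE vM21 (GRCm38) for 99.4% of identifiers, against 1.94% for the surgery table. Symbols came from that annotation. Columns of the injection table are numbered 1 and 3 in each group, and titles number the same libraries 1 and 2.

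Low values were whole multiples of 1 read, within 0.1 reads and up to 20 reads, for 92.4 to 92.9% of values with the union of exons as length (surgery) and 98.8 to 99.0% with the mean transcript length (injection); this gave the depths. Libraries of a group differed by more than sampling noise (chi-square per degree of freedom 6.21 to 16.1).

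Genes with a mean of at least 0.5 FPKM were tested in limma 3.58.1 (R 4.3.3) within each table, on log2(FPKM + 0.5), with the mean-variance trend and without covariates, with Benjamini-Hochberg adjustment over all genes tested and a threshold of 0.05. The test was also run on simulated reads drawn around the recovered means. They had the same dispersion for every gene and no tissue differences between libraries. That run therefore does not show how the test performs on these libraries. The alternatives were other pseudocounts, filters and scalings, array weights, no trend, a replicate block, voom on recovered reads and leaving out each library. The 39 genes, the 107 further genes and the 13 marker lists were chosen with earlier results of these data known. Values per library are given for genes called in either experiment, the sensors, Hspa5, Xbp1, Atf4, Ddit3, Herpud1 and genes without overlap that moved by 0.3 or more; of the further genes, up to 4 called per list and direction are given with values or fold changes, and others are named to complete small counts or were chosen after their values were seen, as were Ddit4, Dnajb9, Ssr1 and Prdx4. Promoters came from RefSeq (GRCm38.p6), searched with Python 3.11.15.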

Additional observations from a re-analysis of the deposited data

How the results depend on the processing

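After pIONT the test as described called 7 of the 39 genes higher and 0 lower. Without a filter it called 4 higher, with TPM scaling 3 higher and 1 lower, and without the trend 3 higher. With voom it called 10 higher and 1 lower, and with the replicate block 2 higher. Over all genes 1438 of 26411 tested were called higher without a filter, 1400 of 18042 with TPM scaling and 1380 of 14672 without the trend. Voom called 1629 of 14446 higher and the replicate block 1053 of 14672, against 1537 of 14672 as described. TPM scaling called 2110 lower and voom 1947, against 1807. Of the further pathway genes 18 were higher and 2 lower; these were 11 and 1 without a filter, 11 higher with TPM scaling, 0 lower with the median of ratios or without the trend, and 6 and 1 with the replicate block. Leaving out each library in turn gave 2 to 7 of the 39 higher and 0 to 1 lower, and 7 to 18 and 0 to 2 of the further genes; 922 genes were called higher in all without sham 3, against 1537. After UCN1 the 2 genes called became 0 without a filter or without the trend, 6 with a filter of 2 FPKM, 6 with the replicate block and 8 with voom. Over all tested genes the 49 called higher became 0 without a filter and 1 without the trend. They became 84 with a filter of 2 FPKM, 124 with the replicate block and 164 with voom. The cause of these moves was not tested. No called gene of the 39 changed sign under any alternative run, and no scaling moved the median of all genes by more than 0.1.

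Whether the replicate numbers pair the samples could not be settled, so the block result is given only here. Deviations of same-numbered libraries correlated at -0.06, -0.20 and 0.07 after surgery, where not every library correlated best with its own number. After injection they correlated at 0.04. With 2 libraries a group the deviations mirror each other, so that value cannot decide on pairing. The block called 1053 genes higher and 1032 lower after surgery, against 1537 and 1807 without it. After injection it called 124 and 136, against 49 and 48 without it. Precision is limited by the 2 or 3 libraries a group, and for Derl3, Trib3 and Chac1 by their read numbers.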

Other observations

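Beyond the 39 genes, 28 genes carried the exact ER stress response element in their RefSeq promoter. After UCN1 10 of them were tested in limma, 7 had positive fold changes, beside 48.5% of all tested genes, and 0 were called. Their median was 0.07 against -0.01 over all tested genes. After pIONT 9 were tested and 2 were positive, beside 45.0% of all tested genes. Of the 9, Acacb was called lower, and the median was -0.08 against -0.02.

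The 2 libraries of UCN1 differed in some of the 39 genes by more than the groups did. Dnajb9 stood at 46.7 and 26.6 FPKM and Derl2 at 20.02 and 14.5 FPKM in UCN1 1 and 2. UCN1 1 was the higher library in 24 of the 39 genes.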
